A study of Mus musculus with 14 samples.

Results

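Notch receptors, their ligands and the Hey and Hes target genes were followed through the mouse embryonic aorta, as 10 genes of the 19322 listed for E10 cells and of the 19424 listed for E11 cells. The 10 genes were chosen by name for their place in the pathway. They are 4 receptors (Notch1, Notch2, Notch3 and Notch4), 3 ligands (Dll4, Jag1 and Jag2) and 3 target genes (Hey1, Hey2 and Hes1).

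The study sequenced single cells and whole intra-aortic haematopoietic clusters by CEL-Seq, a method that counts tags from the 3′ ends of transcripts by their unique molecular identifiers (UMIs). It holds 14 samples, 12 of single cells and 2 of whole clusters. Embryos had 28 to 32 somite pairs at embryonic day (E) 10 and more than 40 at E11. AGM (aorta-gonad-mesonephros) regions were pooled before the cells were sorted, so the number of embryos behind a population was not used here.

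Endothelial cells outside the haemogenic endothelium (non-HE) carried the phenotype Cdh5+ Gfi1- Gfi1b- c-kit-. Haemogenic endothelial (HE) cells, from which blood cells bud, were Cdh5+ Gfi1+ Gfi1b- c-kit-. Cells in endothelial-to-haematopoietic transition (EHT) were Cdh5+ Gfi1+ Gfi1b- c-kit+. All of these came from ICR embryos of the genotype Gfi+/tomato/ Gfi1b+/GFP, with a fluorescent reporter in 1 allele of each locus, and were sorted at both stages. Wild-type C57BL/6 embryos gave the intra-aortic haematopoietic cluster (IAHC) cells, c-kit+ CD31+ at both stages and also c-kit+ without a CD31 gate at E11. The same strain gave E11 precursors of haematopoietic stem cells (pre-HSCs), which are c-kit+ Cdh5+ and were divided into CD45- type I and CD45+ type II, as well as c-kit+ yolk sac (YS) cells and the mechanically picked whole IAHCs (wIAHCs). Between IAHC and EHT cells, strain, reporter alleles and population cannot be told apart.

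At E10 there were 43 non-HE, 98 HE, 191 EHT, 73 IAHC and 141 YS cells. At E11 there were 30 non-HE, 46 HE, 46 EHT, 62 type I, 55 type II, 201 IAHC (c-kit+ CD31+), 89 IAHC (c-kit+) and 46 YS cells. All cells in the tables were used, which in some populations, E10 EHT among them, are more than the study's own plots hold. The authors had brought every cell to the same total, 3000 transcripts at E10 and 5000 at E11, so levels at the 2 stages stand on different scales until E11 cells are thinned. The headers of the E10 non-HE columns carry the words early E11, although the table is that of E10, and the stage of these cells rests on the table alone.

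Notch signalling passes between touching cells. A ligand of the Delta or Jagged family on one cell pulls on a receptor of its neighbour, the receptor is cleaved, and its intracellular part enters the nucleus and acts there with the DNA-binding protein RBPJ. Hey and Hes genes, which encode transcriptional repressors, are the best-known targets, and in the embryo the pathway is required for arterial identity and for the first haematopoietic stem cells of the aorta.

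Levels are mean transcripts per cell. CEL-Seq gives 1 tag per transcript, so they were not divided by gene length. Each population is 1 sample, or in the case of the 2 pre-HSC types a part of the same sample, so differences between populations have no replicate check and no test, and the 95% intervals given (exact Poisson for means, Clopper-Pearson for shares of cells) cover counting error only. Within a population, cells fall into sorted sets by their column names, and levels are also given by set. Headers of EHT sets name late E10 and E10.5, and those of the 2 E11 non-HE sets late E11 and E11.5, so that between these sets stage and sort cannot be told apart. Both E10 HE sets are headed E10.5, as is 1 of the 3 E10 EHT sets, of 64 cells. Where no transcript was seen, the limit given is that of 3 counts, and it bounds cells with a transcript, not cells that express the gene.

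The sorted labels were checked against marker genes first. Cdh5, the endothelial cadherin used in the sort, was found in 100% of E10 non-HE cells, 96.9% of E10 HE cells and 75.4% of E10 EHT cells, against 2.13% of E10 YS cells. Gfi1 transcripts were found in 1 of 43 E10 non-HE cells and in 27 of 98 E10 HE cells. Kit transcripts were found in 19 of 98 E10 HE cells and 2 of 46 E11 HE cells, although both were sorted as c-kit-, and in 63.9% and 63.0% of EHT cells. Of E10 YS cells, sorted as c-kit+, 28.4% had a Kit transcript.

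**Figure D1:**
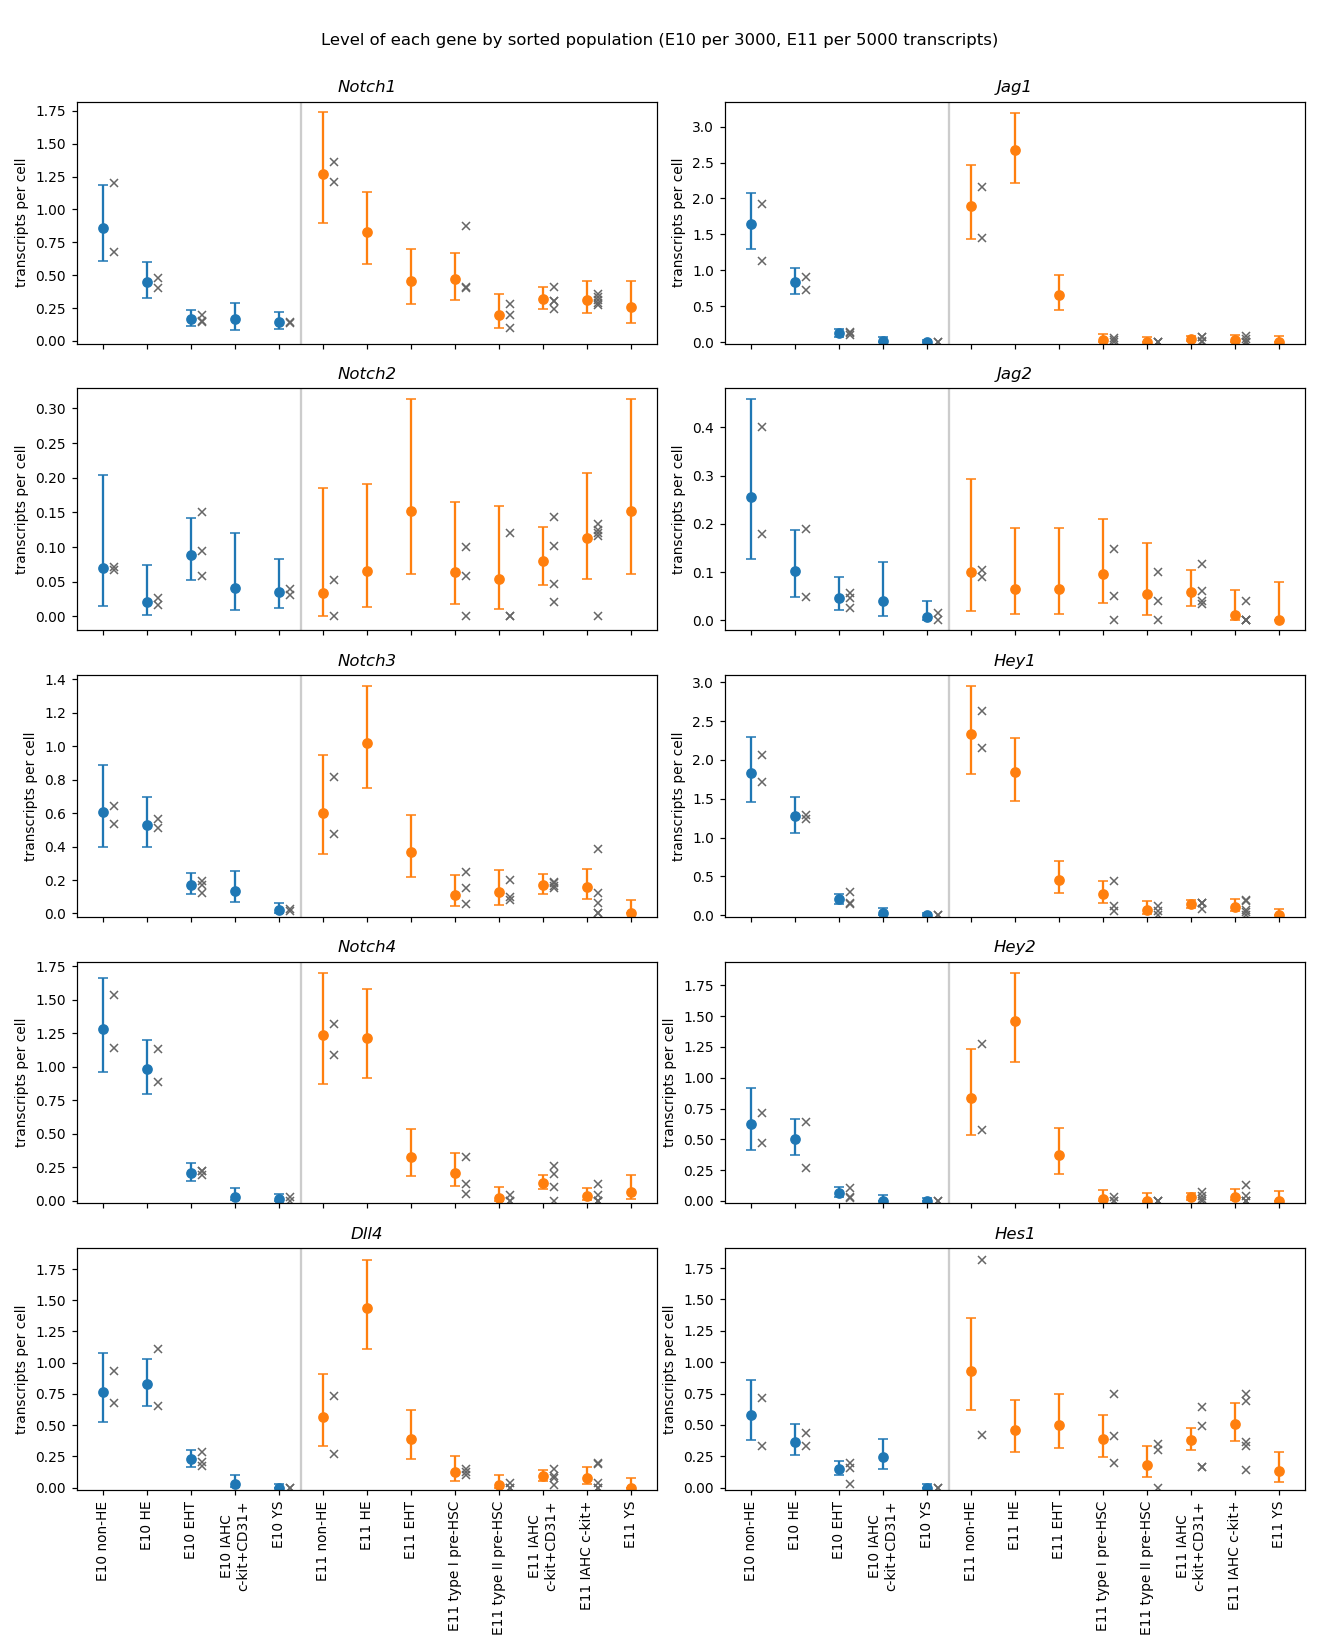
Mean transcripts per cell (vertical axis) of the 10 genes in the sorted populations, with E10 in blue at 3000 transcripts per cell and E11 in orange at 5000; bars are 95% exact Poisson intervals and crosses are sorted sets. Hey1 has its highest levels in non-HE cells, 1.84 at E10 and 2.33 at E11, and was not found in YS cells of either stage.

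Among the receptors, Notch1 (chr2:26457902-26503822, build GRCm38.p6) is the one best known for its need in aortic blood formation. Its level at E10 was 0.860 transcripts per cell in non-HE cells (0.606 to 1.19) and 0.449 in HE cells (0.326 to 0.603), whose intervals just missed each other. It was 0.168 in EHT cells, 0.164 in IAHC cells and 0.142 in YS cells, and the intervals of these last 3 populations overlapped. The order was the same over the first steps at E11, with 1.27 in non-HE (0.896 to 1.74) and 0.826 in HE cells (0.585 to 1.13), 2 neighbours whose intervals overlapped. At E11 the level was 0.468 in type I pre-HSCs, 0.457 in EHT cells, 0.318 and 0.315 in the IAHC samples, 0.261 in YS cells and 0.200 in type II pre-HSCs. No neighbours in that lower part of the order differed beyond their intervals. The E11 interval of HE cells overlapped those of type I pre-HSCs (0.313 to 0.672) and EHT cells (0.283 to 0.698). Notch1 levels were lower past the endothelium, at E11 not beyond the intervals for these 2 populations against HE cells. The counting interval of the log2 ratio of E11 EHT to E11 HE cells, however, ran from -1.70 to -0.05. Notch1 was not lost, with transcripts in 26.4% of E11 c-kit+ CD31+ IAHC cells and 26.1% of E11 YS cells. Thinned to 3000 transcripts, these shares were 18.4% and 10.9%. In E10 IAHC and YS cells they were 13.7% and 12.1%.

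Notch4 (chr17:34564286-34588543), a receptor found mainly in endothelium, was the most abundant of the 4 in endothelial cells at E10 and stood close to Notch1 in non-HE cells at E11. It stood at 1.28 in E10 non-HE cells (0.964 to 1.66) and 0.98 in E10 HE cells (0.793 to 1.2), which did not differ beyond their intervals. EHT cells had 0.209 (0.150 to 0.285), below HE cells and above the 0.0274 of IAHC cells (0.00332 to 0.0990). YS cells had 2 transcripts in 141 cells. At E11 non-HE cells had 1.23 per cell and HE cells 56 transcripts in 46 cells, 2 levels with overlapping intervals. EHT cells had 0.326, type I pre-HSCs 0.210, c-kit+ CD31+ IAHC cells 0.134 and type II pre-HSCs 0.0182. The interval of E11 EHT cells (0.183 to 0.538) lay below that of HE cells (0.920 to 1.58) and overlapped that of type I pre-HSCs. Of the 13 Notch4 transcripts in type I pre-HSCs, 11 came from 1 sorted set of 34 cells, and 1 of the 4 sets of E11 c-kit+ CD31+ IAHC cells had no Notch4 transcript in 49 cells.

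Notch3 (chr17:32120820-32166896) is best known from vascular smooth muscle and pericytes, yet it was found in the sorted endothelium. Its level was 0.605 in E10 non-HE cells (0.395 to 0.886) and 0.531 in E10 HE cells (0.396 to 0.696), then 0.173 in EHT, 0.137 in IAHC and 0.0213 in YS cells. HE cells were highest at E11, with 1.02 (0.751 to 1.36) beside 0.6 in non-HE (0.356 to 0.948) and 0.370 in EHT cells (0.215 to 0.592), and only HE and EHT of these differed beyond their intervals. From EHT cells down, the E11 order was 0.169 in c-kit+ CD31+ IAHC, 0.157 in c-kit+ IAHC, 0.127 in type II and 0.113 in type I cells, whose intervals overlapped. E11 YS cells held no Notch3 transcript in 46 cells, which allows up to 6.52% of cells with one.

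Because Notch3 is a mural gene, mural and mesenchymal markers were read in the same cells. Of 39 E10 HE cells with Notch3, 38 also had Cdh5, and 26 of 26 did so at E11. Of these cells 1 and 2 held 3 or more of the 10 mural and mesenchymal markers, as did 4 of 98 and 4 of 46 HE cells in all. The markers summed to a mean of 1.85 in E10 HE cells with Notch3 and 1.41 in those without, and to 0.974 with Notch3 when the 1 cell with 35 of these transcripts was left out. At E11 the means were 1.88 and 1.95. Pdgfrb, the defining pericyte receptor, was at 0 in HE cells of both stages, as was Cspg4, but 8 of the 10 genes were found in E10 HE cells and 6 in E11 HE cells. Of the filtered genes of the list, 1 of 3 at E10 and 2 of 5 at E11 were higher in HE than in non-HE cells and none was lower. The most abundant gene of the list in HE cells was Acta2, at 0.867 and 0.696 transcripts per cell, with 30 of its 85 transcripts in E10 HE cells held by 1 cell.

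Notch2 (chr3:98013538-98150367) was near the floor everywhere, between 0.0204 transcripts per cell in E10 HE cells (2 transcripts in 98 cells) and 0.152 in E11 EHT and E11 YS cells (7 transcripts in 46 cells of each). No neighbouring populations of either stage differed beyond their intervals, while the counting interval of the log2 ratio of E10 EHT (17 transcripts in 191 cells) to E10 HE cells ran from 0.05 to 5.28. Summed over the 4 receptors, the level was 2.81 per cell in E10 non-HE, 1.98 in HE, 0.639 in EHT, 0.370 in IAHC and 0.213 in YS cells, with no overlap of intervals between non-HE and HE, HE and EHT, or EHT and YS cells. The E11 sum was 3.13 in non-HE (2.53 to 3.83) and 3.13 in HE cells (2.64 to 3.69), with overlapping intervals. E11 EHT cells had 1.30 (0.995 to 1.68), below both.

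The ligand Dll4 (chr2:119325784-119335666), a Delta-type ligand of arterial endothelium, was as high in HE as in non-HE cells at E10, with 0.827 (0.656 to 1.03) and 0.767 (0.528 to 1.08). EHT cells had 0.225 (0.163 to 0.303) and IAHC cells 0.0274, or 2 transcripts in 73 cells. HE cells stood above non-HE cells at E11, with 1.43 (1.11 to 1.83) against 0.567 (0.330 to 0.907). Levels were 0.391 in E11 EHT cells, 0.129 in type I pre-HSCs, 0.0896 and 0.0787 in the IAHC samples and 0.0182 in type II pre-HSCs, and among these the intervals of EHT and type I cells overlapped slightly. Sets of the same population differed. Of E10 HE cells, 1 set had 1.11 Dll4 transcripts per cell and the other 0.656, and the E11 non-HE sets had 0.737 and 0.273.

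Jag1 (chr2:137081451-137116520), a Jagged ligand of endothelium and smooth muscle, was the most abundant ligand in non-HE cells and in E11 HE cells, level with Dll4 in E10 HE cells (82 and 81 transcripts), and nearly absent from blood cells. It stood at 1.65 in E10 non-HE cells (71 transcripts in 43 cells), 0.837 in HE (0.665 to 1.04) and 0.12 in EHT cells (0.0763 to 0.181), each below the one before it beyond the intervals. IAHC cells held 1 Jag1 transcript in 73 cells. The first 2 places were exchanged at E11, with 2.67 in HE (2.22 to 3.19) and 1.90 in non-HE cells (1.44 to 2.46), whose intervals overlapped. The counting interval of the log2 ratio of these HE to non-HE cells ran from 0.03 to 0.97. Jag1 transcripts were found in 93.5% of E11 HE cells, 30.4% of E11 EHT cells and 3.98% of E11 c-kit+ CD31+ IAHC cells. Type II pre-HSCs held none in 55 cells, which allows up to 5.45% of cells with one.

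Jag2 (chr12:112907803-112929812) was low, at most 0.256 per cell in E10 non-HE cells (0.128 to 0.458). HE cells of E10 had 0.102, and the E10 order went on with 0.0471 in EHT, 0.0411 in IAHC and 0.00709 in YS cells, where no neighbours differed beyond their intervals. At E11 Jag2 lay at or below 0.1 in all populations. The 3 ligands together were found in 1 of 141 E10 YS cells and in 0 of 46 E11 YS cells.

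The target Hey1 (chr3:8663359-8667038) and its relative Hey2 (chr10:30832359-30842783) encode repressors that are induced by Notch in arteries. Hey1 was at 1.84 in E10 non-HE (1.45 to 2.29), 1.28 in HE (125 transcripts in 98 cells), 0.204 in EHT (0.145 to 0.279) and 0.0274 in IAHC cells, and only non-HE and HE cells among these neighbours had overlapping intervals. For these 2 the counting interval of the log2 ratio of HE to non-HE cells ran from -0.94 to -0.10. No Hey1 transcript was found in 141 E10 YS cells, a limit of 2.13% of cells. E11 non-HE cells had 2.33 (1.82 to 2.95), E11 HE cells 1.85 (85 transcripts in 46 cells) and E11 EHT cells 0.457 (0.283 to 0.698). The E11 order then ran through 0.274 in type I pre-HSCs, 0.139 and 0.112 in the IAHC samples and 0.0727 in type II pre-HSCs, with overlapping intervals between neighbours. In type I pre-HSCs 15 of the 17 Hey1 transcripts came from the same set of 34 cells that held most of the Notch4 transcripts.

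Hey2 stood at 0.628 in E10 non-HE (0.414 to 0.914) and 0.5 in E10 HE cells (0.370 to 0.661), and at 0.0628 in EHT cells (0.0325 to 0.110). It was not found in 73 E10 IAHC cells, a limit of 4.11%, or in YS cells of either stage. E11 HE cells had the highest level, 1.46 (1.13 to 1.85), beside 0.833 in non-HE (0.539 to 1.23) and 0.370 in EHT cells. Among E11 c-kit+ CD31+ IAHC cells, 5 of 201 had a Hey2 transcript. Set values differed at E10, with 0.270 and 0.639 per cell in the HE sets.

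Promoter sequences are shown for Hey2 and Jag1, the pair of genes whose levels went most closely together over the populations. They are the 250 bases before each gene's start, from RefSeq for GRCm38.p6, both from the minus strand, at chr10:30842784-30843033 for Hey2 and chr2:137116521-137116770 for Jag1. Entries were found for 8 of the 10 genes, and not for Hey1 and Hes1. The letters searched on both strands were TGGGAA, the core of the sequence to which RBPJ is known to bind, its longer form GTGGGAA, which contains it, and CACGTG, a site of basic helix-loop-helix proteins. Capitals mark a match to TGGGAA read on the opposite strand.
Hey2: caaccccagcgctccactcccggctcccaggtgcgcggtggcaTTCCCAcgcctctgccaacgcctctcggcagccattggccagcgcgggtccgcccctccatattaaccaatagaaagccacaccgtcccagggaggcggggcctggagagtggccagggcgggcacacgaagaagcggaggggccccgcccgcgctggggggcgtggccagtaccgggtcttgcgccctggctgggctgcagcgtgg
Jag1: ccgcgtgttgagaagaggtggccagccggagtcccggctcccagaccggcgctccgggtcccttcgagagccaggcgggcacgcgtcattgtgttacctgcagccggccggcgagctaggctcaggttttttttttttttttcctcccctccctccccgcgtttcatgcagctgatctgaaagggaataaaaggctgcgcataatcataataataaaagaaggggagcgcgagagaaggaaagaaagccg
Of the 8 windows searched, that of Hey2 held TGGGAA and GTGGGAA, from 207 to 202 and from 207 to 201 bases before the start, and the others held neither. Not all windows lie before the gene positions printed above. That of Jag2 (chr12:112929496-112929745) lies inside its gene, and those of Notch3 and Notch4 overlap theirs by a few bases. TGGGAA was in 7094 (21.6%) of 32851 promoters and GTGGGAA in 1779 (5.42%). CACGTG was in 1978 promoters (6.02%) and in none of the 8 windows. These matches are letters in a window and say nothing of binding.

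Hes1 (chr16:30065357-30067796), a repressor induced by Notch in many tissues and also by other signals, followed another course. At E10 it stood at 0.581 in non-HE (0.376 to 0.858), 0.367 in HE (0.257 to 0.509), 0.247 in IAHC (0.146 to 0.390) and 0.147 in EHT cells (0.0974 to 0.212), and no neighbours in this order differed beyond their intervals, although non-HE and HE cells both differed from EHT cells. YS cells held no Hes1 transcript in 141 cells, a limit of 2.13%. At E11 the order was non-HE at 0.933, c-kit+ IAHC at 0.506, EHT at 0.5, HE at 0.457, type I at 0.387, c-kit+ CD31+ IAHC at 0.378, type II at 0.182 and YS at 0.130, and no neighbours differed beyond their intervals. Of the 28 Hes1 transcripts in E11 non-HE cells, 20 came from 1 set of 11 cells, and 1 cell held 12. Sets of c-kit+ CD31+ IAHC cells had 0.640, 0.492, 0.163 and 0.163 per cell. Hes1 was the target found most often in the E11 IAHC samples, in 19.9% of c-kit+ CD31+ and 29.2% of c-kit+ cells, where Hey1 was in 12.4% and 8.99% and Hey2 in 2.49% and 3.37%. The study purified IAHC cells by more than 1 transcript of their marker Gpr56 and at most 2 of each non-IAHC gene. The rule was applied here to cells already brought to their common total, with non-IAHC genes that the study's text names. It keeps 140 of the 201 c-kit+ CD31+ and 47 of the 89 c-kit+ cells of E11. At E10 it keeps 54 of 73 cells, although the study's plot of purified E10 IAHC cells also holds 73. The tables may thus hold cells purified before, and these counts are not shares that failed the study's own step. Whether the shares describe clusters alone cannot be told.

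Populations were next compared in pairs by 1 rule, which counts a gene as lower or higher when the ratio of its levels, with 0.1 added to each, was at least 2-fold, among genes whose levels in the pair averaged at least 0.1 per cell. A gene high in 1 population can pass this low-level filter through that population alone, so counts over the members describe them and test nothing. The share of all filtered genes past the same fold is given beside each count, and comparisons that share a population are not independent of each other.

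**Figure D2:**
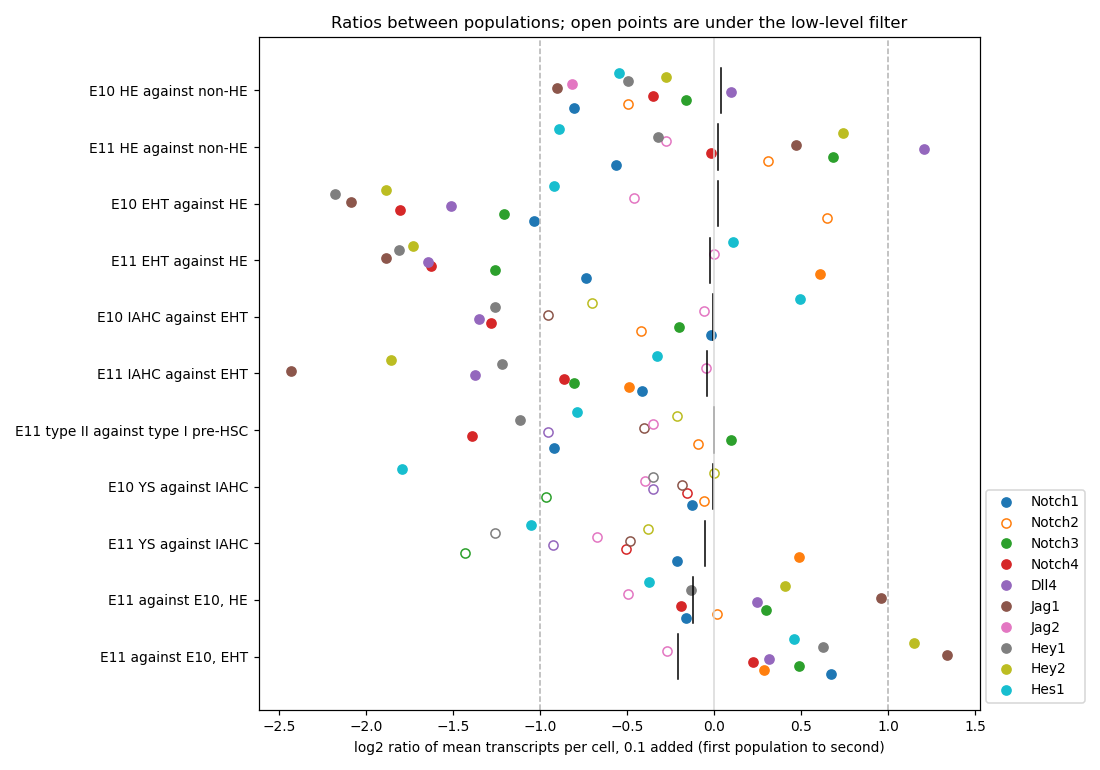
Log2 ratio of mean transcripts per cell with 0.1 added (horizontal axis) for the 10 genes in 11 comparisons, with dashed lines at 2-fold, short black bars at the median of all filtered genes and open points for genes under the low-level filter. Most filtered members lie to the left in EHT against HE cells, with medians of -1.66 at E10 and -1.63 at E11, where Notch2 (0.61) and Hes1 (0.11) lie to the right.

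Haemogenic against non-haemogenic endothelium asks which genes set the aortic cells with Gfi1 apart. At E10, 9 of 10 members passed the filter, 0 were lower (3.16% of 5916 genes were) and 0 were higher (2.6% were). Jag1 came nearest, 1.87-fold lower in HE cells, and the counting interval of its log2 ratio with nothing added ran from -1.46 to -0.50. At E11, 8 members passed, 0 were lower (4.32% of 7134 genes) and 1 was higher (5.58%). That gene was Dll4, 2.30-fold higher in HE cells, with an interval of its log2 ratio from 0.55 to 2.20. The median log2 ratio of the filtered members was -0.49 at E10 and 0.23 at E11, against 0.04 and 0.02 for all filtered genes. These counts depended on single sets. Without 1 of the E10 non-HE sets, of 28 cells, 2 members were lower at E10, Notch1 with a log2 ratio of -1.24 and Jag2 with -1.31, and Hey2 and Hes1 turned to 0.08 and 0.11. Without the other non-HE set Jag1 alone was past the fold (-1.11), as it was without the HE set of 61 cells (-1.08), and without the HE set of 37 cells Jag2 alone was (-1.25). Dll4 at E11 had a log2 ratio of 0.88 without the non-HE set of 11 cells, under the fold, while Hey2 then passed it with 1.2. What is left there is the non-HE set of 19 cells, headed late E11 like all E11 HE cells. The set of 11 cells is headed E11.5. In the same comparison Hes1 had -1.79 without the non-HE set of 19 cells, past the fold, and 0.10 without the set of 11 cells, with the opposite sign. In thinned E11 cells Notch3 was past the fold too, with 1.08, and with 0.5 added instead of 0.1 no member was higher at E11.

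Of the 10 endothelial markers 2 were past the fold in E10 HE against E10 non-HE cells, with a median log2 ratio of -0.60 and a sum of 21.8 against 33.6. In E11 HE against E11 non-HE cells 0 were, with a median of 0.19 and a sum of 44.1 against 36.5. Venous markers also differed, with 2 of the 4 filtered genes lower in HE cells at E10 and 3 of 5 at E11. The list summed to 2.7 transcripts per cell in E10 non-HE and 0.81 in E10 HE cells, with Ephb4 the most abundant in both and Nr2f2 and Aplnr at 0 in HE cells. The 10 arterial markers, a list that holds Hey2, summed to 23.5 in E10 non-HE and 21.6 in E10 HE cells, and to 32.4 and 41.6 at E11. The part of venous cells in the levels of the Notch genes in non-HE cells was not tested.

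The transition from HE to EHT cells was where most members were lower. At E10, 8 members passed the filter, 7 were lower (4.85% of 6068 genes were) and 0 higher (2.44%). Hey1 was 4.52-fold lower, Jag1 4.25-fold, Hey2 3.68-fold, Notch4 3.49-fold, Dll4 2.8-fold, Notch3 2.31-fold and Notch1 2.05-fold. Hes1 was the member past the filter that missed the fold, at 1.90-fold lower. At E11, 9 members passed, 6 were lower (7.72% of 7255 genes) and 0 higher (5.68%). Jag1 was 3.69-fold lower, Hey1 3.50-fold, Hey2 3.31-fold, Dll4 3.12-fold, Notch4 3.09-fold and Notch3 2.39-fold. Notch1 was 1.66-fold lower and missed the fold, while Notch2 was 1.53-fold and Hes1 1.08-fold higher in EHT cells. The median log2 ratio of the filtered members was -1.66 at E10 and -1.63 at E11, while that of all filtered genes was 0.02 and -0.02. With 0.5 added instead of 0.1, 3 members were lower at E10 and 5 at E11. With only the EHT set headed E10.5, like the HE sets, 7 members were lower at E10 as well, Hey1 with -1.79 and Notch1 with -1.19. In the leaving out of single sets Notch1 at E10 lay at the threshold, with -0.92 without the second HE set and -0.97 without the third EHT set, while Hes1 passed it with -1.11 without the second HE set and -1.18 without the second EHT set.

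Other endothelial genes were lower in EHT cells as well. Of the arterial markers other than Hey2, 8 of 9 were lower at each stage, and the whole list summed to 3.63 per cell in E10 EHT and 11.1 in E11 EHT cells, with Nrp1 and Gja4 the most abundant in that order. Of the 10 endothelial markers, 7 were lower at E10 and 8 at E11, and their sum was 21.8 in E10 HE and 8.80 in E10 EHT cells, and 44.1 and 17.3 at E11. Of the haematopoietic markers that passed the filter, 6 of 7 were higher at E10 and 6 of 6 at E11. The list holds Kit, by whose protein EHT cells were sorted from HE cells, so that gene is no independent check. The part of a general change of endothelial transcripts in the lower Notch gene levels was not tested. E11 EHT cells held 2.28 transcripts of the 7 macrophage markers per cell, most of them Lyz2, and 1 of these cells held 4 or more of the markers.

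From EHT to IAHC cells a smaller number of members was lower. At E10, 6 members passed the filter, 3 were lower (4.38% of 5733 genes) and 0 higher (1.66%), namely Dll4 2.55-fold, Notch4 2.43-fold and Hey1 2.39-fold. All of these passed through their EHT levels alone, since IAHC cells held 2 transcripts of each. Notch1 was level across this step, with 0.164 in IAHC and 0.168 in EHT cells, and Hes1 was 1.41-fold higher in IAHC cells. At E11, 9 members passed, 4 were lower (8.66% of 7185 genes) and 0 higher (4.22%), with Jag1 at 5.38-fold, Hey2 at 3.62-fold, Dll4 at 2.59-fold and Hey1 at 2.33-fold. Notch4 was 1.82-fold lower, but past the fold without the IAHC set of 50 cells (log2 ratio -1.0) or that of 43 cells (-1.08). The median log2 ratio of the filtered members was -0.73 at E10 and -0.86 at E11, against 0.00 and -0.04 for all filtered genes. With 0.5 added instead of 0.1, 0 members were lower at E10 and 1 at E11. Arterial markers other than Hey2 were lower in 6 of 7 filtered genes at E10 and 8 of 9 at E11, and the list summed to 0.767 in E10 and 2.19 in E11 IAHC cells.

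Type I pre-HSCs, which lack CD45, precede type II pre-HSCs, which carry it. In type II against type I cells 5 members passed the filter, 2 were lower (1.45% of 6540 genes) and 0 higher (1.18%). Notch4 was 2.62-fold lower, with 1 transcript in 55 type II cells and 13 in 62 type I cells, and Hey1 was 2.17-fold lower, with 4 and 17 transcripts. Both counts depended on the type I set of 34 cells, without which the log2 ratio was -0.54 for Notch4 and 0.01 for Hey1, while Notch1 went from -0.92 to -1.08. The 3 sets of each type carry the same numbers, and without the sets of that number in both types the ratios were -0.78 for Notch4, -0.36 for Hey1 and -1.45 for Notch1. Set by set, Notch4 was lower in type II cells each time (0.125 and 0, 0.324 and 0.04, 0.05 and 0), and so was Notch1 (0.875 and 0.2, 0.412 and 0.28, 0.4 and 0.1). Hey1 was lower in 2 of the 3 and equal in the other, at 0.05. Without the type II set of 10 cells Hey1 had -0.99. In the remaining members, Notch1 was 1.89-fold and Hes1 1.73-fold lower in type II cells, and Notch3 1.07-fold higher. Notch1 was also past the fold without the type II set of 25 cells (-1.28). Hes1 was past it without the type I set of 20 cells (-1.03) and without the type II set of 20 cells (-1.39). The type II set of 25 cells held no Hes1 transcript, and the size of the ratio depends on that set. By sets of the same number, Hes1 was lower in type II cells in the first and second (0.75 and 0.3, 0.412 and 0). It was higher in type II cells in the third (0.2 and 0.35). The median log2 ratio was -0.92 for the filtered members and 0.00 for all filtered genes. With 0.5 added instead of 0.1, 0 members were lower, and in thinned cells 1 was. Arterial markers summed to 2.76 in type I and 0.436 in type II cells. Erythroid transcripts, which sorted precursors should lack, summed to 3.47 and 2.33 per cell over 7 genes, most of them Hbb-y.

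Yolk sac c-kit+ cells were compared with IAHC cells as blood progenitors of another site. At E10, 2 members passed the filter, 1 was lower in YS cells (4.96% of 5325 genes) and 0 higher (2.76%). That gene was Hes1, with 0 transcripts in 141 YS cells and 18 in 73 IAHC cells, at least 11.6-fold lower when YS cells are set at 3 counts over the population. This bound and the others below take the count of the other population as exact. With its counting error the interval of the log2 ratio reached up to -3.09. Notch1 did not differ beyond its intervals at E10. At E11, 3 members passed, 1 was lower (6.2% of 6418 genes) and 0 higher (1.51%), again Hes1, at 2.07-fold. It was under the fold without 1 of the IAHC sets, with log2 ratios of -0.76 without the set of 50 cells and -0.90 without that of 59 cells. Notch3, with 0 transcripts in 46 YS cells and 34 in 201 IAHC cells, was at least 2.59-fold lower at that floor, and Hey1, with 0 and 28, at least 2.14-fold, with intervals of the log2 ratio up to -1.0 and -0.70, and neither passed the filter. With 0.5 added instead of 0.1, 0 members were lower at either stage, and in thinned E11 cells 0 were. The median log2 ratio of the filtered members was -0.96 at E10 and -0.21 at E11, against 0.00 and -0.05 for all filtered genes. The endothelial list summed to 0.504 in E10 YS and 6.18 in E10 IAHC cells, and 9 of its 9 filtered genes were lower in YS cells. The list holds Pecam1, the gene of CD31, on which the IAHC cells but not the YS cells were sorted.

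Stages were compared with E11 cells thinned to 3000 transcripts. In HE cells 8 members passed the filter, with 0 lower at E11 (5.28% of 5849 genes) and 0 higher (3.35%). Jag1 was 1.94-fold higher at E11, just under the fold. Without the E10 HE set of 61 cells, 1 member was lower and 2 were higher at E11, Jag1 with a log2 ratio of 1.13 and Hey2 with 1.1. In EHT cells 9 members passed, 0 were lower (3.8% of 5836 genes) and 2 were higher (2.69%). Jag1 was 2.52-fold higher, from 0.12 to 0.457 per cell, and Hey2 2.22-fold higher, from 0.0628 to 0.261. The median log2 ratio of all filtered genes was -0.12 in HE and -0.21 in EHT cells, and that of the members 0.06 and 0.49. Of the arterial markers other than Hey2, 1 of 8 filtered genes was higher in E11 EHT cells, and their median log2 ratio was 0.77. With 0.5 added instead of 0.1, 0 members were higher in EHT cells.

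Genes of the pathway beyond the 10, taken from a list of 54 modifiers, cofactors and further ligands and targets, were past the fold in 1 to 4 cases per comparison. With 1.18% to 8.66% of all filtered genes past it on either side, counts this small do not set the list apart from other genes. In HE against non-HE cells, 31 of them passed the filter at E10 and 1 was higher, Kat2a, an acetyltransferase, at 2.16-fold. At E11, 39 passed and 1 was lower, Dlk1, a Delta-like protein that lacks the usual receptor-binding domain, with 0 transcripts in 46 HE cells against 28 in 30 non-HE cells, at least 14.3-fold at that floor (log2 ratio up to -3.44). Dlk1 was higher in EHT than in HE cells at E10, 3.20-fold and the 1 gene of 32, and it was not found in E11 EHT cells, at least 5.38-fold below E10 EHT cells (log2 ratio up to -2.09). Numb, an inhibitor of Notch that is passed to 1 daughter cell in asymmetric division, was 2.03-fold higher in E11 EHT cells, the other of 29 genes past the fold between the stages. In E11 EHT against HE cells 1 of 37 was past the fold, the co-repressor Tle1, 2.42-fold lower.

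In IAHC against EHT cells, 2 of 30 pathway genes were lower at E10, the co-repressor Spen at 2.7-fold and the deacetylase Hdac2 at 2.5-fold. At E11, 3 of 36 were lower, Numb at 5.06-fold, with 2 transcripts in 201 IAHC cells, the protease Furin, which cuts the receptor on its way to the surface, at 2.63-fold, and Hdac2 at 2.05-fold. Type II pre-HSCs had 3.49-fold more Dlk1 than type I cells, the 1 gene of 30 past the fold. In YS against IAHC cells at E10, 2 of 27 were lower, Nrarp, a feedback inhibitor induced by Notch, at 2.41-fold and the glycosyltransferase Mfng at 2.14-fold. At E11, 3 of 32 were lower, Nrarp at 2.91-fold, the gamma-secretase subunit Ncstn at 2.60-fold and the O-fucosyltransferase Pofut1 at 2.18-fold, and Dlk1 was higher at 2.62-fold. In HE cells Nrarp was 2.13-fold lower at E11 than at E10, the 1 gene of 31.

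**Figure D3:**
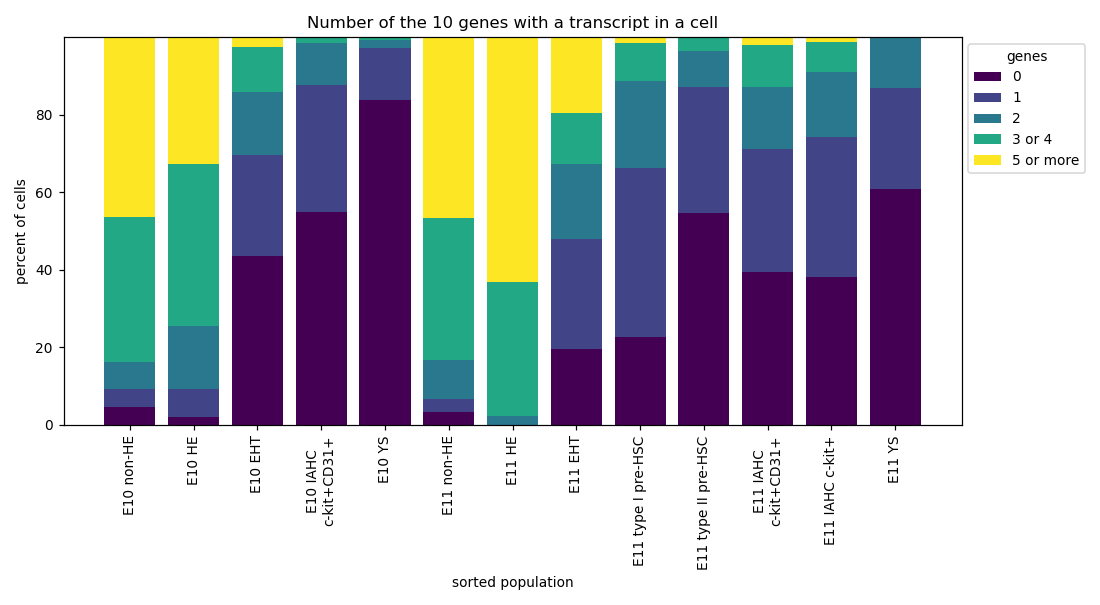
Percent of cells (vertical axis) by the number of the 10 genes with a transcript in the cell, for each sorted population. Cells with none of the 10 made up 2.04% of E10 HE cells, 43.5% of E10 EHT cells and 83.7% of E10 YS cells.

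Members were also counted cell by cell. The median number of the 10 genes with a transcript was 4 in E10 non-HE and E10 HE cells, 1 in EHT cells and 0 in IAHC and YS cells. At E11 it was 4 in non-HE, 5 in HE, 2 in EHT, 1 in type I, 0 in type II, 1 in each IAHC sample and 0 in YS cells. Every one of the 46 E11 HE cells had a transcript of at least 1 member, and 80.4% of E11 EHT cells did. Cells with none were 54.8% of E10 IAHC, 22.6% of type I, 54.5% of type II and 39.3% of E11 c-kit+ CD31+ IAHC cells. In E10 EHT cells 72 of 191 had a receptor transcript, 48 a ligand and 49 a target, and 24 had both a ligand and a target, where the product of the shares gives 12.3. Of 30 E10 EHT cells with Dll4, 11 had Hey1, where the product gives 4.7. Dll4 with Hey2 and Hey1 with Hey2 were each found in 5 E10 EHT cells (1.6), a receptor with a target in 27 (18.5) and Dll4 with Notch1 in 4 (4.24). In E10 HE cells Hey1 was with Hey2 in 19 (21.8) and a ligand with a target in 64 (62.1). Dll4 was with Hey2 in 8 E11 EHT cells (2.15), and in E11 c-kit+ CD31+ IAHC cells Dll4 was with Hey1 in 8 (1.99) and a ligand with a target in 20 (9.87).

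**Figure D4:**
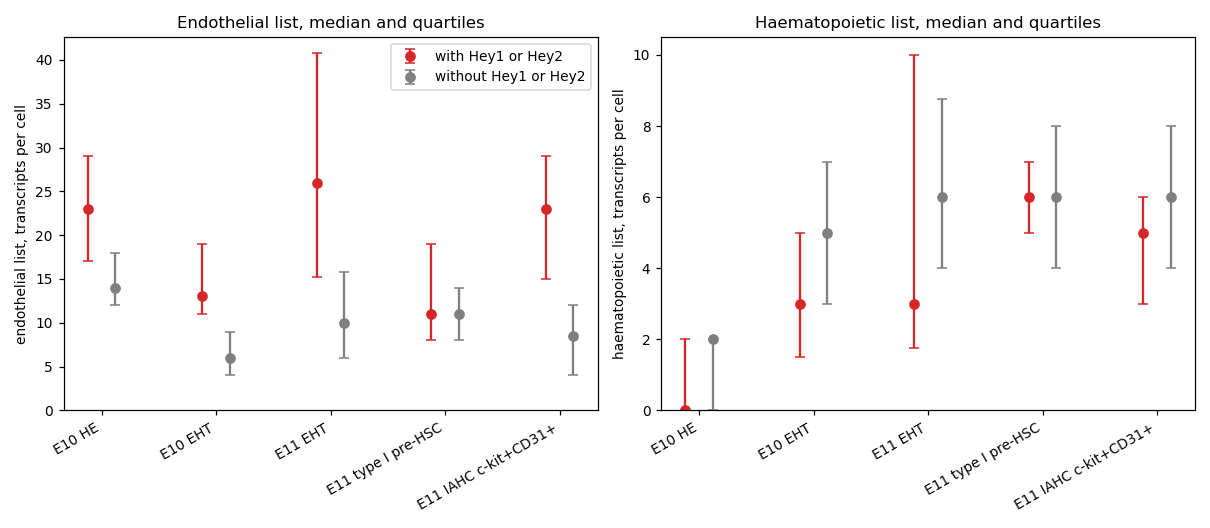
Transcripts per cell of the 10 endothelial markers (left) and the 9 haematopoietic markers (right) in cells with (red) and without (grey) a Hey1 or Hey2 transcript, as medians with quartiles. In E10 EHT cells the endothelial medians were 13 with and 6 without.

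Cells that held a Hey transcript were compared with the rest of their population. In E10 HE cells, 77 with and 21 without, the endothelial medians were 23 and 14, with Dll4 in 54.5% and 28.6%. The difference was thus seen before the transition as well. In E10 EHT cells the 35 with Hey1 or Hey2 had a median of 13 transcripts of the endothelial list, against 6 in the 156 without. Their median of the haematopoietic list was 3 against 5. Dll4 was found in 37.1% (21.5% to 55.1%) of the cells with a Hey transcript and in 10.9% (6.48% to 16.9%) of those without. Runx1, the factor required for the transition, was found in 51.4% and 51.3%, and Kit in 48.6% and 67.3%. In E11 EHT cells, 16 with and 30 without, the endothelial medians were 26 and 10, with Dll4 in 56.3% and 6.67%, Runx1 in 43.8% and 60% and Kit in 43.8% and 73.3%. The E11 c-kit+ CD31+ IAHC sample held 29 such cells among 201, with endothelial medians of 23 and 8.5 and Dll4 in 31.0% and 4.07%. There Runx1 was in 55.2% and 51.7% and Kit in 31.0% and 48.8%. In type I pre-HSCs the 13 with and the 49 without had the same endothelial median of 11, while Dll4 was in 30.8% and 6.12%. Kit was there in 76.9% and 67.3% and Runx1 in 61.5% and 44.9%, so Kit was not lower in the cells with a Hey transcript. Cells of 1 population are not replicates, so these are descriptions.

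The pattern of each member over the 13 populations was set beside that of 2486 other genes, as Pearson's r of log2 levels at 3000 transcripts with 0.1 added. The points share their depth and differ in cell number and strain. Jag1 and Hey2 were each other's nearest gene (r = 0.996), followed for both by Prex2 and Sox17. Dll4 was nearest to Efnb2 (0.992), Gja5 (0.984) and Fndc3b. Hey1 was nearest to Efna1 (0.994), Unc5b and Parvb, and Notch4 to Klhl4 (0.979), Fndc3b and Unc5b. Notch1 was nearest to Prss23 (0.977), Dhh and Dbn1, and Notch3 to Myzap (0.963), Sox7 and Mpzl1. Lower values were found for Jag2, nearest to Ddx3y (0.937), Grk4 and Cd151, and for Hes1, nearest to Rgs2 (0.923), Maged2 and Cldn5. Notch2 stayed under the level needed for this comparison. Among the members, Hes1 had r = 0.743 with Hey1 and 0.652 with Hey2, where Hey1 and Hey2 had 0.970, and Notch2 had -0.17 with Hes1 and -0.15 with Notch3.

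Markers of other cell types that the sorts could hold were also read. The 6 neural markers summed to at most 0.169 per cell, in E11 c-kit+ CD31+ IAHC cells, and were all at 0 in E10 non-HE and HE cells. Macrophage markers were at 0 in non-HE cells of both stages, and 1 E10 HE cell and 1 E11 EHT cell held 4 or more of the 7. Erythroid transcripts reached 5.04 per cell in E11 YS cells, above every Notch gene there, as the 2.28 macrophage transcripts in E11 EHT cells were above every member.

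Whole IAHCs were sequenced as small bulk samples from the ventral and the dorsal side of the aorta. Of 109 libraries, the 57 with at least 5000 transcripts were used, at E10 21 ventral and 7 dorsal and at E11 17 ventral and 12 dorsal. Their totals ran from 5099 to 115328 transcripts, and levels are per 10000 transcripts of a library. Libraries of 1 embryo cannot be recognised from the labels, so p-values measure the spread between clusters, some of which may share an embryo. E11 columns form 2 sets by name, of 4 and 13 ventral and of 6 and 6 dorsal libraries, and E10 columns 1. Here fewer cells of a type and less RNA per cell cannot be told apart.

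**Figure D5:**
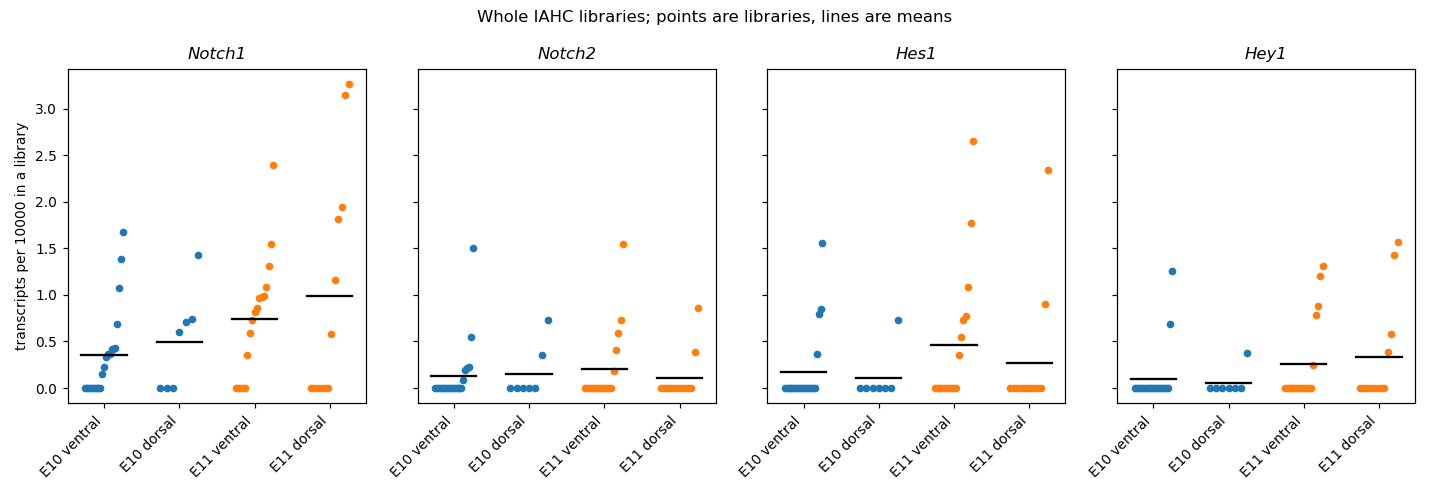
Transcripts per 10000 (vertical axis) of Notch1, Notch2, Hes1 and Hey1 in wIAHC libraries by stage and side, with points for libraries and lines for means. The highest Notch1 value is 3.27, in an E11 dorsal library, and many libraries of each group lie at 0.

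Notch1 was the member found most often in whole clusters, at E10 in 12 of 21 ventral and 4 of 7 dorsal libraries and at E11 in 12 of 17 and 6 of 12. Its level ran from 0 to 1.67 per 10000 in E10 ventral libraries (median 0.228), to 1.43 in E10 dorsal (0.606), to 2.40 in E11 ventral (0.812) and to 3.27 in E11 dorsal libraries (0.290). The groups overlapped throughout. In single IAHC cells (c-kit+ CD31+) Notch1 stood at 0.548 per 10000 at E10 and 0.637 at E11. Hes1 was found in 4 of 21, 1 of 7, 7 of 17 and 2 of 12 libraries in the same order, with a highest value of 2.7 in E11 ventral libraries, in a library that held 8.13 of the 20.2 Hes1 transcripts of its group, and in single IAHC cells it stood at 0.822 at E10 and 0.756 at E11. Hey1 was in 2, 1, 5 and 4 libraries of these groups, and Hey2 in 0, 1, 3 and 1. Dll4 was in 5 E10 ventral and 2 E11 ventral libraries and in no dorsal library of either stage, where 3 counts over a group would be 0.148 per 10000 at E10 and 0.237 at E11. Notch2 was in 6, 2, 5 and 2 libraries, Jag1 in 2, 1, 3 and 0, Notch3 in 1, 1, 3 and 1, Notch4 in 2, 0, 2 and 3, and Jag2 in at most 1 library of a group.

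At this depth no member could be tested with the usual filter. Between E11 and E10, 0 of the 10 members was among the 260 genes that passed edgeR's expression filter, of which 81 (31.2%) were called in ventral and 24 (9.23%) in dorsal wIAHCs at an adjusted p under 0.05 (Benjamini-Hochberg). DESeq2 called 89 and 29. Ventral and dorsal wIAHCs were set apart in 0 of 260 genes at E10 and 0 at E11 by edgeR, with 20 and 23 genes at an unadjusted p under 0.05, and DESeq2 called 0 at each stage. The interaction of stage and side gave 0 by edgeR, 26 at an unadjusted p under 0.05, and 0 by DESeq2.

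Without the filter all 10 members were tested among 13627 genes, and edgeR called 0 of them in every contrast. Background shares were 2.27% for stage in ventral, 0.785% for stage in dorsal, 0.0587% for side at E10, 0.0881% for side at E11 and 0.154% for the interaction. At an unadjusted p under 0.05 there were 3 members for stage in ventral libraries (Hes1, Hey2 and Notch3), 1 in dorsal libraries (Notch4), 0 for side at each stage and 1 for the interaction (Notch4). Of all 13627 genes, 2010, 1402 and 867 were under it for stage in ventral, stage in dorsal and the interaction, so 1 member of 10 in the last 2 is about the background. The share was largest for stage in ventral libraries, and 3 members of 10 beside it is too small a count to set them apart. Notch3 was found there in 3 of 17 E11 and 1 of 21 E10 libraries. For side, 727 genes were under it at E10 and 1217 at E11, so 0 members of 10 is near the background as well. Hes1 was nearest to a call, higher in E11 than in E10 ventral wIAHCs with a log2 ratio of 1.51 ± 0.49 (SE), an unadjusted p of 0.00229 and an adjusted p of 0.0798 by edgeR. It was found in 7 of 17 and 4 of 21 of these libraries, and the groups overlapped at 0. The Hey2 value rests on 3 of 17 E11 libraries with any transcript and on none of 21 at E10, and its adjusted p was 0.106 by edgeR. Haemoglobin transcripts were over 10% of the total in 2 E11 ventral libraries and 1 E11 dorsal library and in none at E10.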

How the data were processed

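Cells and whole clusters had been sequenced by CEL-Seq, and the submitters' processing notes name BWA 0.6.2-r126 and the build mm10. The authors deposited single-cell values as estimated counts of transcripts after correction for UMI collisions, brought to 3000 (E10) or 5000 (E11) per cell, with 0.1 added to each value, and wIAHC values as estimated counts without a common total. The 0.1 was subtracted. Columns were mapped to samples by their names, and 0 columns were left over in the single-cell tables and 0 in the wIAHC table, from which 90 spike-in entries were left out.

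Levels, exact intervals, ratios and correlations were computed in Python 3.11.15 with numpy 2.4.6, pandas 2.3.3 and scipy 1.17.1, and figures drawn with matplotlib 3.10.9. Rounded wIAHC counts of libraries with at least 5000 transcripts were tested in R 4.3.3 with edgeR 4.0.16 (TMM, filterByExpr, quasi-likelihood test, 4 groups of stage and side in 1 fit, Benjamini-Hochberg over all genes tested). Both were tested on simulated data. All 10 members were named, and of 54 other pathway genes up to 5 past the fold in a comparison. For each member reaching 0.2 transcripts per cell in a population the 3 nearest of the genes reaching 0.5 were named. Endothelial, arterial, venous, haematopoietic, mural and mesenchymal, neural, macrophage and erythroid marker lists were read as a check. The members and lists were chosen with earlier results of these data known.

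Alternatives were a pseudocount of 0.5, no filter on low levels, E11 cells thinned to 3000, cells without macrophage markers, IAHC cells with more than 1 Gpr56 transcript and at most 2 of each non-IAHC gene, each sorted set left out, DESeq2 1.42.0, no filter on low counts, library minimums of 2000 and 10000, libraries over 10% haemoglobin left out, and whole UMIs. Chosen after seeing the data were EHT cells of the set headed E10.5 alone, pre-HSC sets of the same number left out together and a term for the E11 column sets. Doublets were not searched for, since cells were sorted into wells. Gene positions, promoters and their coordinates came from RefSeq for GRCm38.p6, the patched form of the mm10 build.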

Additional observations from a re-analysis of the deposited data

Results flagged for a closer look

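Among the 7 E10 dorsal wIAHC libraries, 1 stood far from the others in total depth, with 115328 transcripts where the next had 27011. In 6 genes a single library of this group held all the transcripts found, so it stood apart from the others, which were at 0. The values were 0.0869 per 10000 for Notch3, in the deepest library, 0.743 for Jag1, 0.371 for Jag2, 0.371 for Hey1 and 0.371 for Hey2, all in the library of 27011 transcripts, and 0.732 for Hes1 in another. Each of these rests on 1 or 2 transcripts. In all, 9 values of this group were looked at. By chance about 5 in 100 groups of continuous values would be marked, but a gene found in 1 library alone is always marked, so for these 6 genes the mark says only that.

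Directions of several ratios differed between the stages, with 1 sample per population, and these differences were not tested. From non-HE to HE cells the log2 ratio of Notch3 was -0.16 at E10 and 0.68 at E11, that of Jag1 -0.90 and 0.47, and that of Hey2 -0.28 and 0.74. For Hes1 it was -0.92 at E10 and 0.11 at E11 from HE to EHT cells, and 0.49 and -0.33 from EHT to IAHC cells. Among these HE to non-HE ratios of Notch3, Jag1 and Hey2, only that of Jag1 at E10 and those of Jag1 and Hey2 at E11 had counting intervals away from 0.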

How the results depend on the processing

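Counts of transcripts limit most values, since many levels rest on under 20 transcripts. No paired analysis was possible as a test because the single-cell comparisons come from no test (pre-HSC sets of the same number were only read side by side), and no replicate number of the wIAHC columns occurs on both sides. Sets of columns were left out together or given a term instead. Leaving out each library in turn was not run, as no group had as few as 5 libraries (the smallest had 7). Of the 27 called ratios, 9 stayed past the 2-fold with a pseudocount of 0.5. Of 86 values with a set left out, 85 kept their direction and 78 stayed past it.

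A pseudocount of 0.5, which shrinks ratios of low genes by construction, gave 0 members higher in HE against non-HE cells at E11 and 0 in E11 against E10 EHT cells. Members lower were then 3 in EHT against HE cells at E10, 0 in IAHC against EHT cells at E10 and 1 at E11, 0 in type II against type I cells, and 0 in YS against IAHC cells at E10 and 0 at E11. Without the low-level filter, which adds genes, 3 members were lower in YS against IAHC cells at E11. In thinned E11 cells 2 members were higher in HE against non-HE cells, 1 was lower in type II against type I cells and 0 in YS against IAHC cells, which hold fewer transcripts.

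Leaving out sorted sets changed counts whose cause was not tested. In E10 HE against non-HE cells 2 members were lower without the first non-HE set, and 1 without the second non-HE set, the first HE set or the second HE set. Without the second E10 HE set 1 member was lower and 2 were higher in E11 against E10 HE cells. In E11 HE against non-HE cells 1 was lower without the first non-HE set. In type II against type I cells 1 was lower without the second type I set, where the log2 ratio of Hey1 turned to 0.0109, and 1 without the first type II set. In an alternative chosen after seeing the data, in which the sets of the same number were left out of both types, it was 1 without the second pair. In YS against IAHC cells at E11 it was 0 without the first or the second IAHC set. In wIAHCs, genes called without the count filter, which tests more genes, were 310 and 107 for stage in ventral and dorsal libraries, 8 and 12 for side at E10 and E11 and 21 for the interaction. With at least 10000 transcripts per library they were 132 and 3 for stage, where both the libraries (5 E11 dorsal ones left) and the genes tested (490 instead of 260) differed, and the cause was not tested. A term for the 2 sets of E11 columns, also added after seeing the data, gave 67 and 24 for stage and 0 for side and interaction.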
